A study of Mus musculus with 6 samples.

Results

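Collagen chain genes encode the alpha chains of the collagens, the triple-helical proteins of the extracellular matrix. The members were the protein-coding genes of the mouse annotation (GENCODE M21, build mm10) whose symbol has the form Col, number, a, number, and 44 of 21951 protein-coding genes met this rule. They were read in 6 libraries of RNA co-precipitated with Ago2, the protein of the RNA-induced silencing complex (RISC) that holds the guide miRNA and, through it, the target mRNA. The cells were primary mouse satellite cells (MSC), muscle stem cells grown on collagen-coated dishes. They were kept 30 h in differentiation medium (DM), transfected with 10 nM RNA duplex according to the labels, and held 16 h more in DM. The study's methods give a higher duplex concentration than the labels for this step. All 6 libraries thus came from transfected cultures, whose cells the study calls myocytes, and markers of other cell types are given below. No library of untransfected cells or of input RNA was analysed here. The duplex was miR-222 in the 2 miR-222-IPs and siGFP, a duplex against a protein these cells lack, in the 4 control-IPs. For miR-222-IP replicate 2 the condition label reads miR222 while the title reads miR22, and the condition label was used. Experiment 1 comprised miR-222-IP replicate 1 with control-IP replicates 1 and 2. Experiment 2 comprised miR-222-IP replicate 2 with control-IP replicates 3 and 4. The labels do not say whether the libraries of an experiment came from separate cultures, and no strain or age is used here.

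Each library is a list of peaks, stretches of the genome with an excess of reads, and the score of a peak is its −log10 p. The lists of 5 libraries held 10579 to 37762 peaks, the shortest from control-IP replicate 1 and the longest from miR-222-IP replicate 2, with median widths of 362 to 411 bp. The list of control-IP replicate 3 held 3619 peaks with a median width of 32103 bp on 10 chromosomes, and its peaks are given apart. A score rises with depth as well as with enrichment, and the depth is unknown because the lists hold no read counts. A gene without a peak was therefore not detectable in that library at the threshold of 20, and no value below it can be given. In such bulk libraries fewer cells of a type and less RNA per cell cannot be told apart.

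Collagen chains are translated at the endoplasmic reticulum, hydroxylated and glycosylated there, wound into triple helices from the carboxyl end and secreted. Fibrillar chains build the cross-striated fibres of connective tissue, type IV chains the sheet of the basement membrane that surrounds each muscle fibre, and the FACITs and multiplexins decorate these assemblies. In muscle the fibrillar chains are made mainly by fibroblasts, whereas satellite cells and myotubes contribute chains of the basement membrane zone. The miRNAs best known for silencing collagens are those of the miR-29 family, and a miRNA finds its targets mostly through its seed, bases 2 to 8.

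The mature miRNAs that bear on the collagen peaks are shown first, as RefSeq gives them on GRCm38.p6, with the seed in capitals. The 3 members of the miR-29 family share the seed, and miR-222 shares its own with miR-221.
mmu-miR-29a-3p: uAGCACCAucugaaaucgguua
mmu-miR-29b-3p: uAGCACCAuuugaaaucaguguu
mmu-miR-29c-3p: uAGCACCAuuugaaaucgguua
mmu-miR-222-3p: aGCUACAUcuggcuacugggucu

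The collagen stretches under a peak that hold the complement of the miR-29 seed (the 7-mer TGGTGCT, searched on the strand of the gene) are shown next because they are the sites the miR-29 values rest on. They are read 5′ to 3′ on the strand of the gene from GRCm38, with the match in capitals. The Col27a1 stretch also holds the complement of the let-7 seed, CTACCTC, 22 bases upstream of the miR-29 match and in capitals too.
Col27a1 3'UTR, chr4:63333898-63333926, plus strand: CTACCTCccactgtgaaatcgcTGGTGCT
Col25a1 3'UTR, chr3:130597871-130597897, plus strand: tttgtgttgtTGGTGCTaatagatctt
Col4a2 3'UTR, chr8:11448349-11448375, plus strand: aaggccacgtTGGTGCTtatccttctg
Col4a2 3'UTR, chr8:11448520-11448546, plus strand: acacccagctTGGTGCTtactcttaac
Col4a1 coding sequence, chr8:11199752-11199778, minus strand: cgtcacaacaTGGTGCTactccccccc

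Markers of the cells in the culture were read first. All 8 muscle genes listed (Myog, Myod1, Des, Myh3, Acta1, Actc1, Ttn and Tnnt3) had exonic peaks in miR-222-IP replicate 2, with 95 peaks and highest scores that summed to 1065.9. In the other 4 libraries 6 or 7 of the 8 had a peak, with 10 to 19 peaks and sums of 246.8 to 386.1. Of 8 fibroblast genes, 2 had a peak in any of the 5 libraries (Pdgfra and Thy1), at most 1 in each, with sums of 0 to 40.2. Dcn, Lum and Postn, secreted products of fibroblasts, had none. Of the 3 endothelial genes Pecam1 had a peak in all 5 libraries and Cdh5 in 1, with sums of 26.1 to 106.5. Of the 3 macrophage genes (Ptprc, Adgre1 and Cd68), 2 or 3 had a peak in each library, with sums of 358.4 to 507.6. In each of the 4 libraries other than miR-222-IP replicate 2 this sum was above that of the 8 muscle genes. In miR-222-IP replicate 2 it was below, at 482 against 1065.9. A further 12 macrophage genes had exonic peaks in all 5 libraries, with sums of 1660 to 2074.2. They were Csf1r, Lyz2, Itgam, Mrc1, Mertk, Cd14, Tyrobp, Fcgr1, Spi1, Ctss, C1qa and Aif1. These were chosen after the values above were seen, so they are no independent evidence, and no other list was extended. For scale, 46.9% of all protein-coding genes had an exonic peak in any of the 5 libraries and 19.0% in all 5. By library the share was 44.7% in miR-222-IP replicate 2 and 21.4% to 34.8% in the others. The part of these cell types in the collagen peaks was not tested.

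Few collagen genes carried an exonic peak. In any of the 5 libraries 10 of the 44 members had one (22.7%), whereas 46.9% of all protein-coding genes did. These 10 were Col27a1, Col15a1, Col25a1, Col9a3, Col3a1, Col5a1, Col1a2, Col4a1, Col4a2 and Col6a3. One gene, Col15a1, had a peak in all 5 libraries, against 19.0% of protein-coding genes. The median exonic length of the 44 members was 7542.5 bp against 3498 bp for all protein-coding genes, and their median 3'UTR was 1082.5 bp against 971 bp.

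The number of collagen genes differed by library. It was 2 in control-IP replicate 1 (background 21.4% of protein-coding genes), 3 in control-IP replicate 2 (34.8%), 3 in miR-222-IP replicate 1 (33.2%) and 3 in control-IP replicate 4 (29.8%). In miR-222-IP replicate 2 it was 9 (44.7%). As shares of the 44 members these are 4.55%, 6.82%, 6.82%, 6.82% and 20.5%, so the members lay below the background in every library. The 9 of miR-222-IP replicate 2 came from the longest list. When each library was limited to its 10579 highest-scoring peaks, 3 members remained in miR-222-IP replicate 2 (background 24.3%) and 4 in any library (32.2%), namely Col15a1, Col25a1, Col27a1 and Col9a3. Without miR-222-IP replicate 2, 5 members had a peak in any of the other 4 libraries (background 40.3%), these being the same 4 genes and Col6a3. The muscle genes given above also had their highest sums in miR-222-IP replicate 2, and the part of depth or of muscle RNA in the result was not tested.

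**Figure D1:**
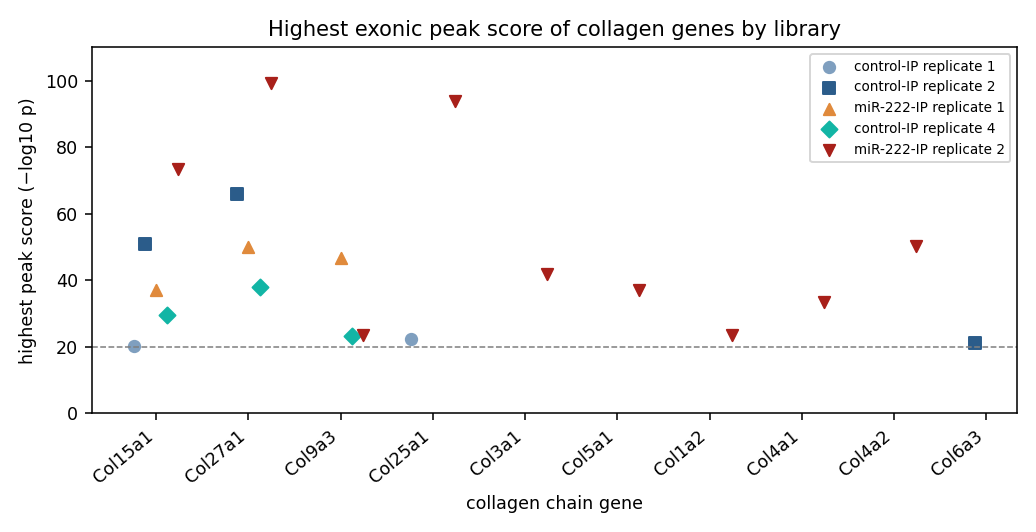
Highest exonic peak score (−log10 p, linear axis) of the 10 collagen genes with a peak, with a symbol for each library and a dashed line at the authors' threshold of 20. Col15a1 has a symbol for each of the 5 libraries, Col27a1 for 4 and Col9a3 for 3, while 5 genes have only the symbol of miR-222-IP replicate 2.

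By structural class, 4 of 11 fibrillar chains, 2 of 6 basement membrane chains, 1 of 6 beaded filament chains, 1 of 9 FACITs (chains that sit on the surface of fibrils), 1 of 4 transmembrane chains and 1 of 2 multiplexins had an exonic peak. Over all protein-coding genes the share in any of the 5 libraries was 46.9%. Among these 5 libraries the fibrillar Col3a1, Col5a1 and Col1a2 and both basement membrane chains were called in miR-222-IP replicate 2 alone. None of the 3 network-forming chains (Col8a1, Col8a2 and Col10a1), the anchoring fibril chain Col7a1, or Col26a1 and Col28a1 had an exonic peak in any of the 5. The fibrillar chains without a peak were Col1a1, Col2a1, Col5a2, Col5a3, Col11a1, Col11a2 and Col24a1. Thus Col1a1, whose product pairs with that of Col1a2 in type I collagen, was not detected in the 5 libraries. The basement membrane chains without a peak were Col4a3, Col4a4, Col4a5 and Col4a6, and the beaded filament chains were Col6a1, Col6a2, Col6a4, Col6a5 and Col6a6. The FACITs without a peak were Col9a1, Col9a2, Col12a1, Col14a1, Col16a1, Col19a1, Col20a1 and Col22a1, the transmembrane chains Col13a1, Col17a1 and Col23a1, and the multiplexin Col18a1.

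The proteins that process collagen were read from a list of 29 genes, which encode prolyl and lysyl hydroxylases, chaperones, secretion factors, propeptide proteases and cross-linking oxidases. Of these, 15 had an exonic peak in any of the 5 libraries (51.7%, near the background of 46.9%) and 9 had one in all 5 (31%, background 19.0%). The 9 were P4ha1 and P4hb (subunits of prolyl 4-hydroxylase), Plod1 and Plod3 (lysyl hydroxylases), P3h2, Ppib, Colgalt1, Mia3 and Sparc. The highest peak of Sparc, a collagen-binding matrix protein, scored from 133.61 to 145.57 in the 5 libraries, above every collagen peak of these libraries. By contrast Serpinh1, the collagen chaperone, had a peak of 59.98 in miR-222-IP replicate 2 alone, as had Plod2, P3h1 and Loxl3 at other scores. The procollagen N-proteinases Adamts2, Adamts3 and Adamts14 and the lysyl oxidases Lox, Loxl1, Loxl2 and Loxl4 had no peak. Of the 2 reference genes, Fn1, which encodes fibronectin, had none either. The glycolytic gene Gapdh, which every cell uses, had no peak in control-IP replicate 1 and highest scores of 39.05, 25.36, 42.65 and 128.43 in the other libraries, so a missing peak does not show a missing transcript. Between 9 and 15 of the 29 genes had a peak in a library, that is 31%, 37.9%, 34.5%, 37.9% and 51.7% in the order of libraries used for the chains above, against 21.4%, 34.8%, 33.2%, 29.8% and 44.7% of all genes. The difference between this list and the chains was not tested.

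**Figure D2:**
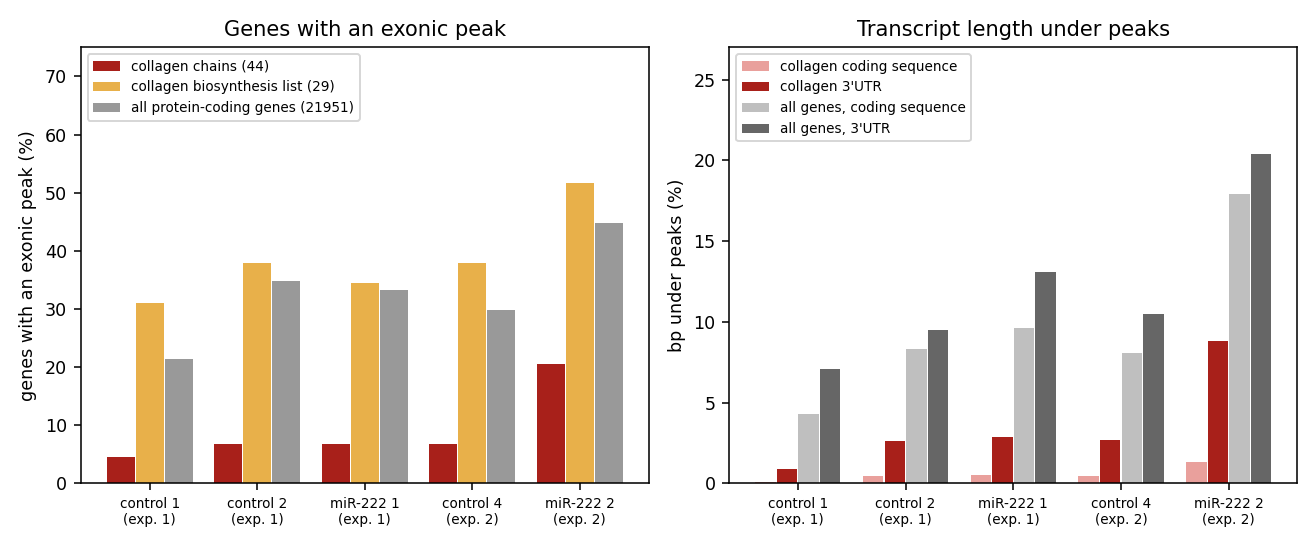
Left, percent of genes with an exonic peak in each of the 5 libraries, for the 44 collagen chains, the 29 genes of collagen biosynthesis and all 21951 protein-coding genes. Right, percent of coding and 3'UTR length under peaks for the collagen chains and for all genes, where the collagen bars are the lower ones in every library and the collagen 3'UTR reaches 8.83% in miR-222-IP replicate 2.

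The 28 peaks over collagen exons in the 5 libraries were 191 to 1593 bp wide, and none touched an exon of another annotated gene. Merged across libraries they formed 16 intervals, and 10 of them (62.5%, exact 95% binomial interval 35.4% to 84.8%, which covers counting error only) reached the 3'UTR without touching a 5'UTR. Over all exonic intervals of protein-coding genes this share was 30.3%. Of the 16, 6 lay over coding sequence alone, 7 spanned coding sequence and 3'UTR, 3 lay in the 3'UTR alone and none touched a 5'UTR. The midpoint of a collagen interval lay at a median of 1185.5 exonic bp from the 3' end of the gene, against 2906 bp over all exonic intervals. Intervals of 1 gene share its transcripts, so they are not independent, and the binomial interval takes no account of this. Members with a peak had a median of 1 interval and at most 3, against 2 and at most 64 over all genes with a peak. Of the 16 collagen intervals, 8 came from miR-222-IP replicate 2 alone (50%, against 31.3% over all). No share by gene was formed, so the difference from 30.3% was not tested.

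By length, peaks of any of the 5 libraries covered 1.49% of the coding sequence of the members and 9.66% of their 3'UTR. For all protein-coding genes the values were 19.3% and 22%, so the shares of coding sequence and 3'UTR were nearer to each other there. In miR-222-IP replicate 2 the values for the members were 1.33% and 8.83%, and in the other 4 libraries they were 0.104% to 0.485% and 0.907% to 2.86%. Collagen coding sequence is split into many short exons. The median coding block of the members was 63 bp against 124 bp for all protein-coding genes, and blocks of up to 150 bp made up 59.8% of their coding length against 34.9%. Peaks covered 0.466% of the members' length in these short blocks and 3.02% in longer ones, whereas the values for all genes were 15.9% and 21.1%. Of the 2453 bp under peaks in longer blocks, 974 bp lay in a single exon of Col27a1.

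Col27a1, a fibrillar chain of cartilage and other tissues, had the highest collagen score of the 5 libraries and 3 exonic intervals. The interval chr4:63333769-63335017 covered 1223 bp of its 3'UTR in the last of 61 exons. In experiment 1 it scored 55.59 in control-IP replicate 2 and 49.99 in the miR-222-IP, with no peak in control-IP replicate 1. In experiment 2 it scored 37.86 in control-IP replicate 4 and 99.16 in the miR-222-IP. The peaks of control-IP replicate 2, miR-222-IP replicate 1 and control-IP replicate 4 ended on the last annotated base of the gene, 1686 bp after the last coding base. The other shared interval, chr4:63224260-63225233, was the only collagen coding interval called in more than 1 library. All 974 bp of it lay in the coding part of exon 3, a single exon of 1736 bp, far larger than the median coding block. Its scores were 66.02, 44.72, 37.13 and 79.02 in the same order of libraries, again without a peak in control-IP replicate 1. In both intervals the miR-222-IP of experiment 1 lay between its 2 control-IPs, and that of experiment 2 lay above control-IP replicate 4. Another interval, chr4:63333154-63333470, spanned the stop codon in control-IP replicate 2 alone, with a score of 49.14. The highest score of Col27a1 exceeded those of 40.1% to 71.5% of the genes called in the same library, so the gene lay in the middle of the called genes.

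Col15a1, a multiplexin of the basement membrane zone of muscle fibres and vessels, was the only member called in all 5 libraries. Its chromosome is outside the list of control-IP replicate 3, so it could not have a peak there. The interval chr4:47312008-47312471 spanned the stop codon, in the last of 40 exons. In experiment 1 it scored 20.22 in control-IP replicate 1 and 36.88 in the miR-222-IP. In experiment 2 it scored 29.54 in control-IP replicate 4 and 73.48 in the miR-222-IP. The score in control-IP replicate 1 was just above the threshold. The peak of control-IP replicate 2, with a score of 50.81, lay 128 bp further downstream at chr4:47312600-47312970, within the 3'UTR, so it formed an interval of its own and no Col15a1 interval held peaks of all 5 libraries. The gene has 1 miR-29 seed match in its 3'UTR, 213 bp after the last coding base and between these intervals, under no peak. A further Col15a1 interval, chr4:47306612-47306927, covered the 129 bp of exon 35 and had a score of 23.35 in miR-222-IP replicate 2 alone.

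**Figure D3:**
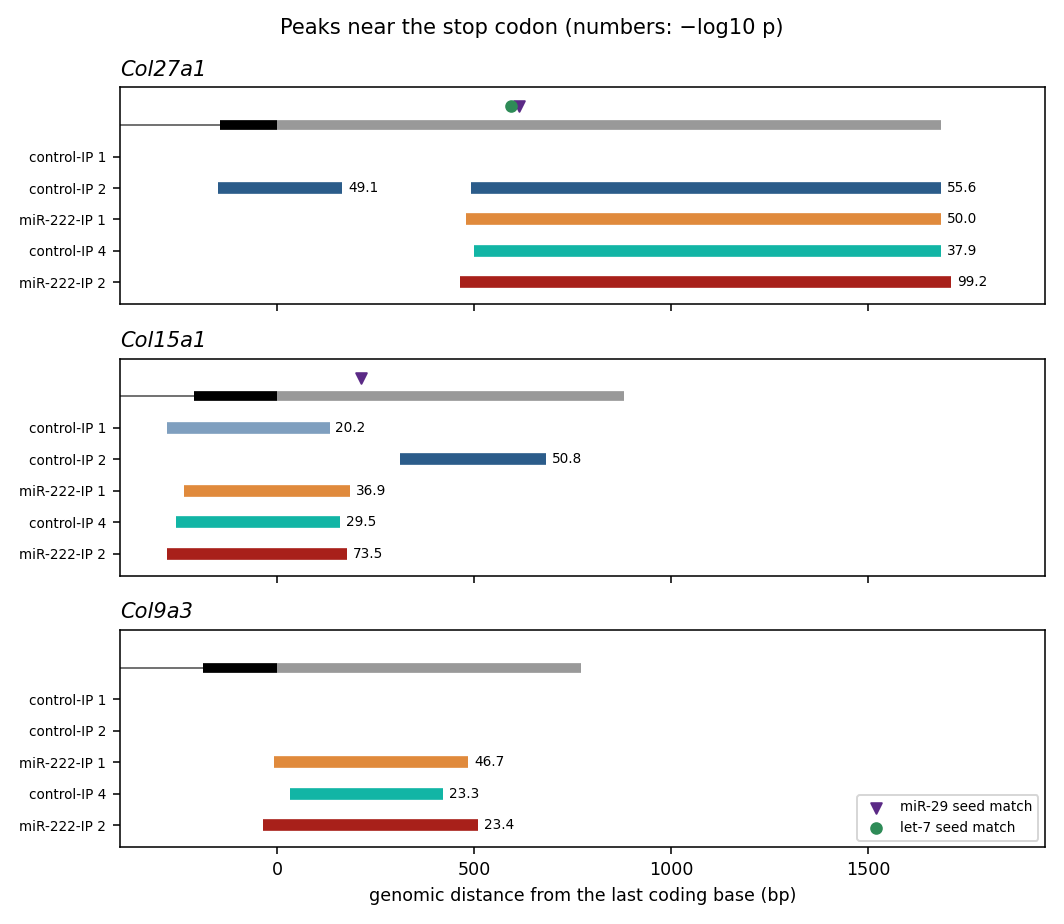
Peaks of Col27a1, Col15a1 and Col9a3 around the stop codon in each of the 5 libraries, by genomic distance from the last coding base in bp. The bar on top of each panel is the last exon (black coding, grey 3'UTR, thin line intron), numbers are scores, and triangles and circles mark miR-29 and let-7 seed matches. The Col15a1 peak of control-IP replicate 2 starts 313 bp after the last coding base, where those of the other libraries have ended.

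Col9a3, a FACIT chain of type IX collagen, had an interval at chr2:180621380-180621927 with 510 bp of 3'UTR. It scored 46.69 in the miR-222-IP of experiment 1, and 23.26 in control-IP replicate 4 and 23.44 in the miR-222-IP of experiment 2. No peak was called in control-IP replicates 1 and 2, so the experiment 1 value came from the miR-222-IP alone, whereas in experiment 2 the scores differed by less than 1. Col25a1, a transmembrane collagen of neurons and developing muscle, had the widest interval, 1593 bp of 3'UTR at chr3:130597217-130598809. The annotation gives this stretch to a transcript other than the one with the longest coding sequence. It scored 93.91 in miR-222-IP replicate 2 against 22.3 in control-IP replicate 1, and had no peak in the other 3 libraries.

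The other 6 members were called in 1 library each. In miR-222-IP replicate 2 alone, Col3a1, the chain of type III collagen, had a peak of 22.41 over coding exon 50 (chr1:45347604-45347940) and another of 41.78 across the stop codon (chr1:45348516-45348958). Col5a1, a chain of the fibril-nucleating type V collagen, had a peak of 28.7 over exon 3 (chr2:27927969-27928329) and another of 36.99 across the stop codon (chr2:28036871-28037502). Col1a2 had a peak of 23.35 over coding exon 51 of 52 (chr6:4539422-4539731). Col4a1 and Col4a2 are neighbours on chromosome 8 whose products join in the common form of type IV collagen. They scored 33.49 (chr8:11198939-11199940) and 50.14 (chr8:11448151-11449144), each across the stop codon, with 767 and 831 bp of 3'UTR under the peak. Col6a3, of the beaded filaments around muscle fibres, had a single peak of 21 over coding sequence in control-IP replicate 2 (chr1:90773511-90773701). The highest scores of these 6 members were 21 to 50.14. Moreover, 5 of the 10 members with a peak were called in miR-222-IP replicate 2 alone, against 14.1% of the 10289 protein-coding genes with a peak.

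The effect of miR-222 could be read only in part. No collagen interval held a peak in all 5 libraries, although 18.5% of the 36674 exonic intervals did, so the scaled log2 ratio of a miR-222-IP to the mean of both control-IPs could not be formed in experiment 1. The exact permutation test over the 5 libraries could not be run for any member, and with 6 arrangements of labels within experiments its smallest p is 0.167. Among the 6780 exonic intervals with 5 peaks, both miR-222-IPs exceeded every control-IP of their experiment in 18.2%, and both lay below in 17.1%. No collagen interval could enter either count.

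Ratios to a single control-IP are given as descriptions, on the log2 scale of scores divided by a scaling factor for each library. They compare −log10 p and are not fold changes of RNA. In experiment 2, miR-222-IP replicate 2 against control-IP replicate 4 gave 0.80 for the 3'UTR interval of Col27a1 and 0.50 for its coding interval. The same ratio was 0.72 for Col15a1 and -0.58 for Col9a3. Over 15560 exonic intervals it had a median of 0.15 with a standard deviation of 0.51, so these 4 values lay within 1.5 standard deviations of that median. In experiment 1, miR-222-IP replicate 1 against control-IP replicate 2 gave -0.28 and -0.68 for the Col27a1 3'UTR and coding intervals, where 11775 exonic intervals had a median of -0.13 with a standard deviation of 0.74. For Col15a1 the ratio to control-IP replicate 1 was 0.28, where 8564 intervals had a median of 0.00 with a standard deviation of 0.44. Hence both Col27a1 intervals scored higher in control-IP replicate 2 than in the miR-222-IP of experiment 1, and higher in the miR-222-IP than in control-IP replicate 4 in experiment 2. Control-IP replicate 1 had no Col27a1 peak, so against it the miR-222-IP of experiment 1 lay above. Col15a1 had the higher score in the miR-222-IP in both pairs, although in experiment 1 that holds against control-IP replicate 1 alone.

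Seed matches of miR-222 were rare in the members. The 7-mer ATGTAGC, complementary to its seed and searched on the strand of the gene, occurred once in the 3'UTRs of the 44 members, in Col4a3, and once in their coding sequences. This is 0.152 matches per 10 kb of 3'UTR against 0.735 over all protein-coding genes with a 3'UTR, of which 9.87% hold a match. No 7-letter miR-222 match of a member lay under a peak of the 5 libraries, nor did any match of 6 letters (TGTAGC) in their exons. Of the 7 such 6-letter matches in 3'UTRs, the 4 of Col23a1 lay under the wide peak of control-IP replicate 3. The intronic parts of peaks were not searched.

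Matches to the miR-29 seed were frequent. The 7-mer TGGTGCT occurred 44 times in the 3'UTRs of 24 members (54.5%), against 13.6% of 21756 protein-coding genes with a 3'UTR and 14.2% of the 16744 whose 3'UTR was between 227 and 4832 bp long, the range of the members. The rate was 6.7 matches per 10 kb against 1.06. It was found in 9 of 11 fibrillar and 5 of 6 basement membrane chains, with 4 matches each in Col5a1, Col4a3 and Col26a1. In coding sequence the members had 4.7 matches per 10 kb against 1.41 over all genes. A match describes letters and is not a measured binding site.

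Of the 44 matches in 3'UTRs, 4 lay under a peak of the 5 libraries (9.09%), close to the 9.66% of their 3'UTR length that peaks covered. Over all protein-coding genes 23.6% of the matches did, against 22% of the length. The Col27a1 match at chr4:63333920-63333926 lay under peaks of all of the 5 libraries but control-IP replicate 1, together with the let-7 match printed above. The match in Col25a1 and both matches in Col4a2 lay under peaks of miR-222-IP replicate 2 alone, so without that library 1 of the 44 matches was under a peak. The match in Col4a1 coding sequence was also under its peak in that library. The Col3a1 match began 23 bp beyond the end of the stop-codon peak, and none of the 4 matches in Col5a1 lay under a peak. Of the 24 members with a match 7 had an exonic peak anywhere, as had 3 of the 20 members without one.

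**Figure D4:**
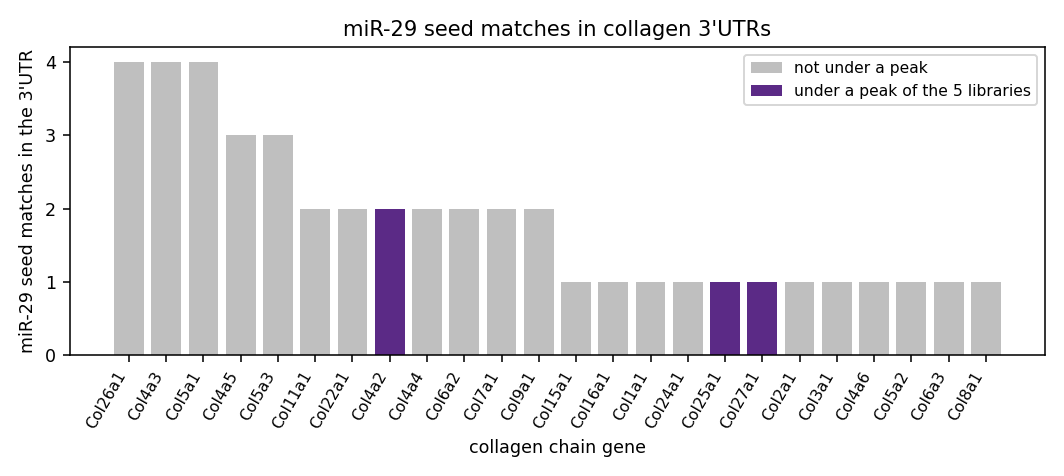
Number of miR-29 seed matches (7-mers) in the 3'UTR of each of the 24 collagen genes that hold one. The purple bars of Col4a2, Col25a1 and Col27a1 are the 4 matches under a peak of the 5 libraries, and grey bars are matches outside peaks.

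Other miRNA families known in muscle or in most tissues were counted in the same way. The let-7 match CTACCTC occurred in the 3'UTRs of 9 members (20.5%, against 9.39% of all protein-coding genes with a 3'UTR). It lay under a peak of the 5 libraries in Col27a1 alone. The match of miR-206, ACATTCC, occurred 8 times in 6 members (13.6%, against 10.4%). That of miR-133, GGACCAA, occurred 6 times in 5 members (11.4%, against 8%). None of these lay under a peak of the 5 libraries. Over all genes 22.3%, 24.4% and 25.9% of the let-7, miR-206 and miR-133 matches did, but peaks covered only 9.66% of the members' 3'UTR length. With so few matches, none under a peak says little about these families. The wide peaks of control-IP replicate 3 covered the let-7 matches of Col5a2, Col23a1 and Col1a1 and both miR-133 matches of Col23a1. In coding sequence GGACCAA reached 4.85 matches per 10 kb in the members against 0.891 over all genes. None of these 98 matches lay under a peak of the 5 libraries, which covered only 1.49% of the members' coding sequence.

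The list of control-IP replicate 3 covers only 10 chromosomes, so it could show only some of the members. Of the 19 members on the chromosomes it covers in full, 7 had a peak (36.8%), against 60.7% of the protein-coding genes there. These peaks were 3019 to 76775 bp wide, and 4 of the 7 also covered exons of other genes. Free of other genes' exons were Col3a1 with a score of 97.26, Col5a2 with 95.26 and Col19a1 with 30.92, at widths of 3019, 28553 and 5592 bp. The peaks over Col1a1, Col18a1, Col23a1 and Col11a2 scored 59.86, 30.15, 106.33 and 123.91 and held exons of 3, 1, 5 and 8 other genes. Members on chromosomes outside this list, Col27a1 and Col15a1 among them, could not have a peak here, so the overlap with the other libraries is limited by coverage. Among the members the list could show, Col3a1 alone had an exonic peak both in this library and in any of the other 5. Its peak here ended at base 45348999 of chromosome 1 and covered the miR-29 match that the peak of miR-222-IP replicate 2 did not reach. In all, 3 miR-29 matches lay under peaks of this library, 1 each in the 3'UTRs of Col3a1, Col5a2 and Col1a1.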

How the data were processed

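Per the labels, Ago2-bound RNA of MSC myocytes was sequenced, and the study's methods name SOAPSplice for alignment to mm10 and macs2 for peaks in each library. The deposited lists give positions and the −log10 p of each peak, which the authors kept where it was over 20. The kit does not mark strand. Read totals are not in the lists, so the depth per library and its counting error are unknown. Groups and experiments came from the labels, whereas replicate numbers follow the order of the samples.

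Here peaks were assigned to exons of GENCODE M21 by at least 1 bp, with Python 3.11.15, numpy 2.4.6 and pandas 2.3.3. Peaks of 5 libraries were merged where they overlapped. Sequence was read from GRCm38 with pysam 0.24.0. Scores were divided by median-of-ratios factors. No count test could be used on −log10 p. The interval functions were tested on simulated data. The members and lists were chosen with earlier results of these data known. Every member was named by class, values were given for members with peaks in all 5 libraries and, since few had any, for all 10 with a peak. Alternatives were a threshold of 50, lists of equal length, an overlap of 50%, merging within 100 bp, other exon sets, other seed lengths, control-IP replicate 3 without peaks over 5000 bp, no scaling, and leaving out each library.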

Additional observations from a re-analysis of the deposited data

Results flagged for a closer look

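The median width of the peaks over collagen exons set 1 control-IP apart. It was 21846 bp in control-IP replicate 3, and 438, 371 and 566 bp in control-IP replicates 1, 2 and 4. The gap to the nearest other library was 0.991 of the range. This library was kept apart beforehand for its wide peaks, so an outlier test on width could not be informative.

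The Col27a1 ratios had opposite signs in the experiments where control-IP replicate 2 is the control of experiment 1. The log2 ratio of the miR-222-IP to that control-IP or, in experiment 2, to control-IP replicate 4 was -0.68 in experiment 1 and 0.50 in experiment 2 for the coding interval, and -0.28 and 0.80 for the 3'UTR interval. Control-IP replicate 1 had no peak in either interval, so the miR-222-IP of experiment 1 lay above that control-IP. Each ratio rests on 1 library a side, so the difference between experiments was not tested.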

How the results depend on the processing

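Of 71 recomputed values 57 kept within 1.5 times the reported count, or within the binomial interval of the share. This number says little about stability. Many of the 57 compare 0 with 0, for miR-222 matches, intervals called in all 5 libraries and intervals with both miR-222-IPs above. The overlap of 50% does not enter the match counts, and the binomial interval is wide, 35.4% to 84.8%. With a threshold of 50, 4 collagen genes and 6 intervals were left. The share of all protein-coding genes at that threshold was not computed, so these counts have no background. With lists of equal length, 4 genes, 7 intervals and 2 miR-29 matches under a peak were left, and 85.7% of the intervals reached the 3'UTR. Fewer peaks enter under both. The 6-mer gave 8 miR-29 matches under a peak and the 8-mer 1. Leaving out each library in turn gave 5 to 10 genes, 8 to 16 intervals, 1 to 4 miR-29 matches under a peak and 61.5% to 75% of intervals reaching the 3'UTR, the lowest counts being those without miR-222-IP replicate 2. Intervals called in all remaining libraries numbered 0 to 2 (2 without control-IP replicate 1, 1 without control-IP replicate 2). The interval with both miR-222-IPs above their control-IPs numbered 0 to 1, the 1 being Col15a1 without control-IP replicate 2. No miR-222 match lay under a peak in the settings tried, which leave out the wide peaks of control-IP replicate 3. The median log2 ratios of collagen intervals in both experiments had no value under any setting that keeps all 5 libraries. No paired analysis was possible because the labels number no replicates and name only the experiment, which every ratio kept apart. The replicate numbers used here follow the order of the samples and pair nothing. The cell composition and the read depth behind a missing peak limit every count.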

Other observations

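Peaks inside collagen genes but outside their exons were few. An interval in an intron of Col6a6 (chr9:105819208-105819612, 405 bp) was called in all 5 libraries, with scores of 94.77 and 78.02 in the control-IPs and 84.84 in the miR-222-IP of experiment 1, and of 83.98 and 101.8 in control-IP replicate 4 and the miR-222-IP of experiment 2. No annotated exon lay under it, and the exons of Col6a6 had no peak. An interval in an intron of Col25a1 (chr3:130322958-130323329) had a score of 52.01 in control-IP replicate 2 alone.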
